A study of Bos indicus and Bos taurus with 17 samples.

Results

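The comparison of Jersey with Kashmiri cows at day 15 in milk (D15) covered 11163 of the 21631 distinct gene names in the deposited expression values. A gene name entered when it had at least 1 FPKM (fragments scaled to transcript length and to the mapped reads of the group) in either breed at D15, and a log2 ratio of Jersey over Kashmiri was taken when neither value was 0. Of the 11202 names above that minimum, 39 were listed at 0 in 1 breed and have no ratio. At the edge of the minimum, ADRA1A entered with 1.002 FPKM in Kashmiri and 0.0401 in Jersey, and SFRP4 stayed out with 0.9996 and 0.396. The study sequenced RNA of mammary epithelial cells captured from milk of Kashmiri cattle, a local breed of northern India that was not improved for milk production, and of Jersey cattle, a dairy breed kept on the same farm. The cells were taken at early (D15), mid (D90) and late (D250) lactation. Both D15 groups were labelled stage 1 and held 3 samples each. In the labels, 2 Jersey samples came from cows in lactation 2 and 1 from a cow in lactation 3, whereas 1 Kashmiri sample came from lactation 2 and 2 came from lactation 3. The study's methods state a single lactation number for all cows, so the labels and the methods differ. The authors' values give 1 FPKM per gene and group, so there were no replicates to compare, no error or test is given, and whether a single cow carried a difference is unknown. The D90 and D250 values, given for comparison, come from 3 samples a group except 2 for Jersey at D90. The number of fragments behind each value is unknown.

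Secretory cells of the mammary gland line the alveoli and make the caseins, whey proteins, lactose and fat of milk, and some of them are shed into it. Milk also carries white blood cells. Neutrophils enter from the blood and kill bacteria, macrophages take up debris and fat and present antigen, and lymphocytes recognise antigen or kill infected cells. The cells studied here were pulled from defatted milk with magnetic beads coated with an antibody to keratin 18, a filament protein of simple epithelia, so white cells were not meant to be part of the sample. In such a bulk sample, fewer cells of a type and less RNA per cell cannot be told apart.

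The purity of the captured cells had been checked by qPCR at D90 with primers for the epithelial gene KRT18 and for white cell genes such as LSP1, a leukocyte actin-binding protein, and CD18, the integrin chain encoded by ITGB2. The primers are shown because these genes were the study's measure of white cells among the captured cells. All letters are in lower case, forward and reverse primers are given 5′ to 3′, and no letter is marked.
KRT18 forward: ggagagcaaaatccgggaac
KRT18 reverse: gggcgttgtccacagaattt
LSP1 forward: ctccaacatggcactcactg
LSP1 reverse: gtggctcttgacctggagac
CD18 forward: caaactggcagaaagcaaca
CD18 reverse: tccaggaagactctggagga

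In the D15 RNA-seq values, KRT18 was at 51.3 FPKM in Kashmiri and 33.7 in Jersey, LSP1 at 139 and 334, and ITGB2 at 46.5 and 152. The label of epithelial cells was therefore met in part: the epithelial gene was present in both breeds, but both white cell genes were too. Each exceeded KRT18 in Jersey, and LSP1 did so in Kashmiri as well. The study's qPCR compared captured cells with all milk somatic cells, and found KRT18 higher and LSP1 and CD18 lower after capture. KRT19, another keratin, was far above KRT18, at 3195 FPKM in Kashmiri and 1687 in Jersey. The caseins CSN1S1 and CSN2, the lactose synthase subunit LALBA and the whey protein gene PAEP were listed at 0 in both breeds at D15. These 0 values cannot be read as absence, since GAPDH, a glycolytic gene that every cell uses, was listed at 0 in Kashmiri and at 0.00903 in Jersey. The FPKM of all entries summed to 1023150 in Kashmiri and to 763302 in Jersey. Rescaling to equal sums without the milk protein genes would add 0.41 to every log2 ratio, setting to 0 the median of genes that reached 10 FPKM in each breed would add 0.13, and rescaling by the upper quartile would take off 0.09 (a shift of -0.09).

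Of the 11163 genes, 1132 were at least 4-fold higher in Jersey (10.1% of all genes with a ratio) and 554 at least 4-fold lower (4.96%). At least 2-fold, 2134 were higher (19.1%) and 2085 lower (18.7%). The median log2 ratio over all genes was -0.15, with quartiles at -0.76 and 0.63. The genes higher in Jersey were led by genes of neutrophils and macrophages, and those lower in Jersey held genes of milk secretion, lymphocytes and ribosomes. Among genes with a symbol that reached 1 FPKM in each breed, the 10 highest ratios belonged to S100A8 (5.50), S100A12 (5.37), S100A9 (5.26), NCF1 (5.24), VNN2 (5.20), ACOD1 (4.89), TG (4.86), LTB4R (4.82), PLTP (4.81) and FADS6 (4.77). S100A8, S100A9 and S100A12 encode calgranulins, the calcium-binding proteins that fill neutrophils, NCF1 is a cytosolic subunit of the NADPH oxidase, and ACOD1 makes itaconate in activated macrophages. TG, the gene of thyroglobulin, was at 2.498 FPKM in Kashmiri and 72.6 in Jersey. The 10 lowest belonged to TMEM232 (-9.96), SPDEF (-4.55), TSKS (-4.46), SLC34A2 (-4.40), LPIN1 (-4.10), IL12RB2 (-3.84), CRTAM (-3.79), MCC (-3.54), SPRY2 (-3.48) and CD7 (-3.47). SPDEF is an epithelial transcription factor, SLC34A2 a phosphate transporter of secretory epithelia and LPIN1 a phosphatidate phosphatase of fat synthesis, whereas IL12RB2, CRTAM and CD7 are lymphocyte genes. The lowest of them, TMEM232, was at 1051 FPKM in Kashmiri and 1.05 in Jersey.

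**Figure D1:**
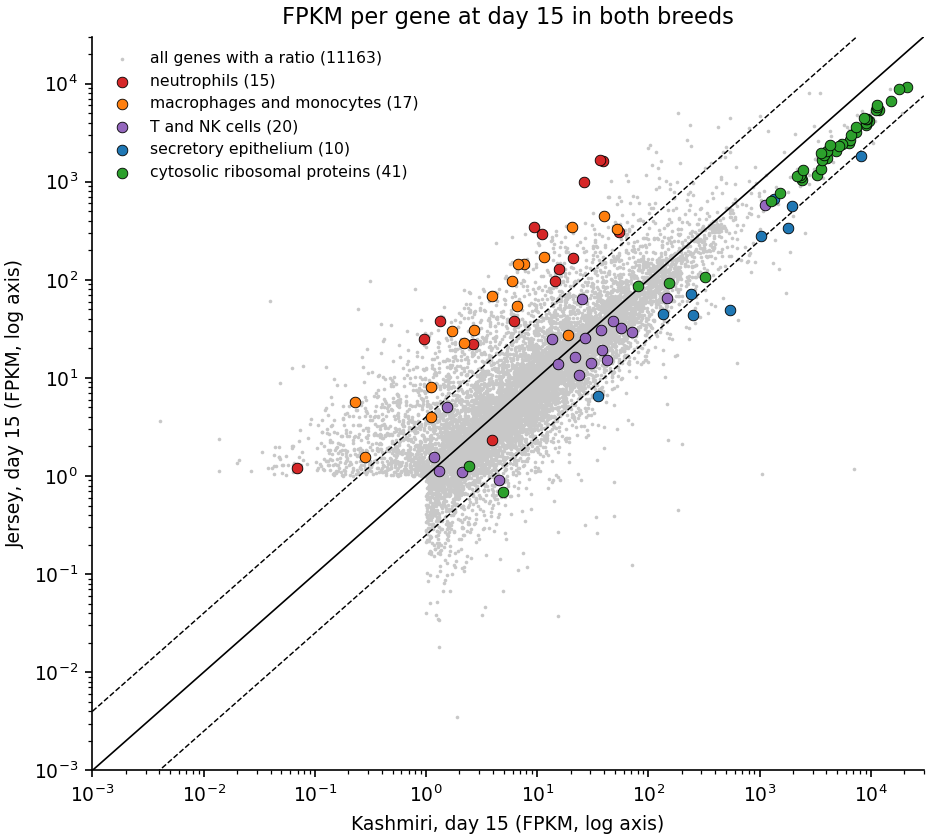
FPKM of each of the 11163 genes at D15 in Kashmiri (horizontal, log axis) and Jersey (vertical, log axis), with 1 value per breed; the solid line marks equal values, the dashed lines 4-fold, and coloured points members of 5 gene lists. Of the neutrophil and macrophage genes, 29 of 32 lie above the upper dashed line, 5 of the 10 secretory epithelial genes lie below the lower one, and 39 of the 41 ribosomal protein genes lie between the solid and lower dashed lines.

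Neutrophil genes were higher in Jersey with 1 exception among those with a ratio. Of 15 with a ratio, 14 were at least 4-fold higher in Jersey and 0 lower, and the median log2 ratio was 4.13 against -0.15 over all genes. S100A8 was at 36.4 FPKM in Kashmiri and 1652 in Jersey, a 45.4-fold difference, and S100A12 was at 39.05 and 1615. TREM1, a receptor that amplifies inflammatory signals on myeloid cells, was at 11.1 and 290.3, and VNN2, a membrane protein involved in neutrophil migration, at 9.36 and 344. CSF3R, the receptor for the granulocyte growth factor, shared an entry with an unnamed gene and had 53.9 FPKM in Kashmiri and 310.4 in Jersey. PGLYRP1, a peptidoglycan-binding granule protein, was that exception, at 3.91 and 2.33. MGAM and MMP9 were under 1 FPKM in Kashmiri, where their ratios rest on low values. The median was 3.05 over members that reached 1 FPKM in each breed. The receptors CXCR1, CXCR2, FPR1 and FPR2 were not found under these names. The 16 members found summed to 242 FPKM in Kashmiri and 5732 in Jersey. The neutrophil list was as far apart at the other days, with medians of 4.01 at D90 and 4.79 at D250.

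Macrophage genes were higher in Jersey across nearly the whole list, and here the list's median was highest at D15. Of 17 with a ratio, 15 were at least 4-fold higher, and the median log2 ratio was 3.48 at D15. On D90 it was 2.04, and by D250 0.89. The log2 ratio was higher at D250 for CD80 (3.97 after 1.84), CD14 (3.22 after 2.67) and the ADGRE1 entry (6.03 after 3.03). Every other member with a ratio had a lower one at D250 than at D15. The 3 chains of complement C1q, which tissue macrophages secrete, stood together: C1QA was at 6.73 FPKM in Kashmiri and 145 in Jersey, C1QB at 5.96 and 98.2, and C1QC at 7.53 and 144. At D250 their log2 ratios were -1.01, -0.72 and -1.13, and that of VSIG4, a complement receptor of resident macrophages, was -0.89 after 4.13 at D15. CSF1R, the receptor that macrophages need for survival, was at 3.902 FPKM in Kashmiri and 68.5 in Jersey. CD14, the co-receptor for bacterial lipopolysaccharide, was at 51.8 and 329.7, CD68 at 11.4 and 169, and the scavenger receptor CD163 at 2.73 and 30.5. The scavenger receptor MSR1 differed least, at 18.8 and 27.1. The 18 members found summed to 183 FPKM in Kashmiri and 1931 in Jersey. MARCO, a marker of alveolar macrophages, was under 1 FPKM in both breeds.

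Genes of dendritic cells followed the same direction on fewer genes. CD207, the C-type lectin of Langerhans cells, was at 0.0775 FPKM in Kashmiri and 13.2 in Jersey (log2 ratio 7.41), CD1E at 0.506 and 6.201, and CD83 at 16.03 and 91.6. CLEC9A and CD1A were under 1 FPKM in both breeds, and LAMP3, a gene of mature dendritic cells, was lower in Jersey, at 7.097 and 4.64. Of the 8 with a ratio, 6 were at least 4-fold higher in Jersey, with a median log2 ratio of 3.07. Of those 6, CD207, CD1E and FLT3 were under 1 FPKM in Kashmiri and entered through their Jersey value alone, and the median was 2.51 over members that reached 1 FPKM in each breed.

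Genes that antigen-presenting cells and phagocytes use moved with these markers, and the part of cell mixture in them was not tested. All 6 genes of MHC class II presentation with a ratio were at least 2-fold higher in Jersey (median log2 ratio 3.205). CD74, the invariant chain that guides class II molecules, was at 240.5 FPKM in Kashmiri and 2336 in Jersey, BOLA-DRB3 at 125 and 892, and the class II regulator CIITA at 2.34 and 7.15. At D250 the list's median was 1.24. Of 20 lysosomal genes, 11 were at least 4-fold higher and 1 lower, with a median of 2.14. The cysteine protease gene CTSB was at 235 and 3772 FPKM, CTSH at 43.1 and 690.3, and GRN, which encodes a lysosomal glycoprotein, at 123 and 1369. CTSW, the cathepsin of cytotoxic lymphocytes, was the 1 lysosomal gene at least 4-fold lower, at 396 in Kashmiri and 54.2 in Jersey.

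T and NK cell genes went the other way by a small amount. Of 20 with a ratio, 16 were lower in Jersey, 6 of them at least 2-fold, and 2 were at least 2-fold higher, with a median log2 ratio of -0.62. CD3E, a chain of the T cell receptor complex, was at 146 FPKM in Kashmiri and 65.5 in Jersey, CD8A at 23.5 and 10.7, and the receptor kinase ZAP70 at 42.1 and 15.2. KLRK1, an activating receptor of NK and CD8 T cells, had the lowest ratio of the list (-2.31), and CCL5, a chemokine of cytotoxic cells, had the highest level, 1109 FPKM in Kashmiri and 575 in Jersey. CD4 was higher in Jersey (13.5 and 25.1), as were NKG7 (25.4 and 63.3) and the NK receptor NCR1 (1.54 and 5.01). The cytotoxic granule gene PRF1 was at 26.8 and 25.6, a difference close to none. The 21 members found summed to 1716 FPKM in Kashmiri and 985 in Jersey. The list's medians were further below 0 on the other days, at -3.56 for D90 and -1.85 for D250.

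B cell genes were at low levels and mostly higher in Jersey at D15. CD79A, a chain of the B cell receptor, was at 8.03 FPKM in Kashmiri and 6.93 in Jersey, and MS4A1, the gene of CD20, at 2.23 and 3.72. Of 10 with a ratio, 7 were at least 2-fold higher in Jersey and 0 lower, with a median of 1.45. A list of genes of white cells in general, which also held the myeloid gene ITGAM, lay between: of 17, 13 were at least 2-fold higher in Jersey and 0 lower (median 1.70). PTPRC, the gene of the common leukocyte antigen CD45, was at 68.7 and 59.97, the leukocyte actin regulator CORO1A at 239 and 779, and ITGAM, the integrin chain of myeloid cells, at 4.999 and 64.01.

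Most defining genes of other cell types were under 1 FPKM, but some genes of platelets and of contractile cells reached 1 FPKM in Jersey. The 8 red blood cell genes found, HBB and ALAS2 among them, were each under 1 FPKM in both breeds, as were the defining genes of fibroblasts (COL1A1, COL1A2, COL3A1, DCN, LUM) and of endothelium (CDH5, KDR, TEK, EMCN). TAGLN, an actin-binding protein of muscle-like cells, was at 0.618 FPKM in Kashmiri and 12.5 in Jersey, and ACTA2 was at 0.693 and 2.08. VWF, which platelets and endothelium contain, was at 0.722 and 9.99, and PECAM1, which white cells also carry, at 0.129 and 2.99. The platelet genes TUBB1, a tubulin, and PPBP, a chemokine, were at 0.504 and 2.17 and at 0.0551 and 1.02, and ITGA2B, an integrin chain of platelets that shared its entry with GPATCH8, was at 4.61 and 9.595. GP9 and GP1BA, also platelet genes of the list, were under 1 FPKM in both breeds. All 5 genes of platelets and endothelium with a ratio were at least 2-fold higher in Jersey (median 3.79), and 4 of them were under 1 FPKM in Kashmiri. The part of such cells in the other results was not tested.

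**Figure D2:**
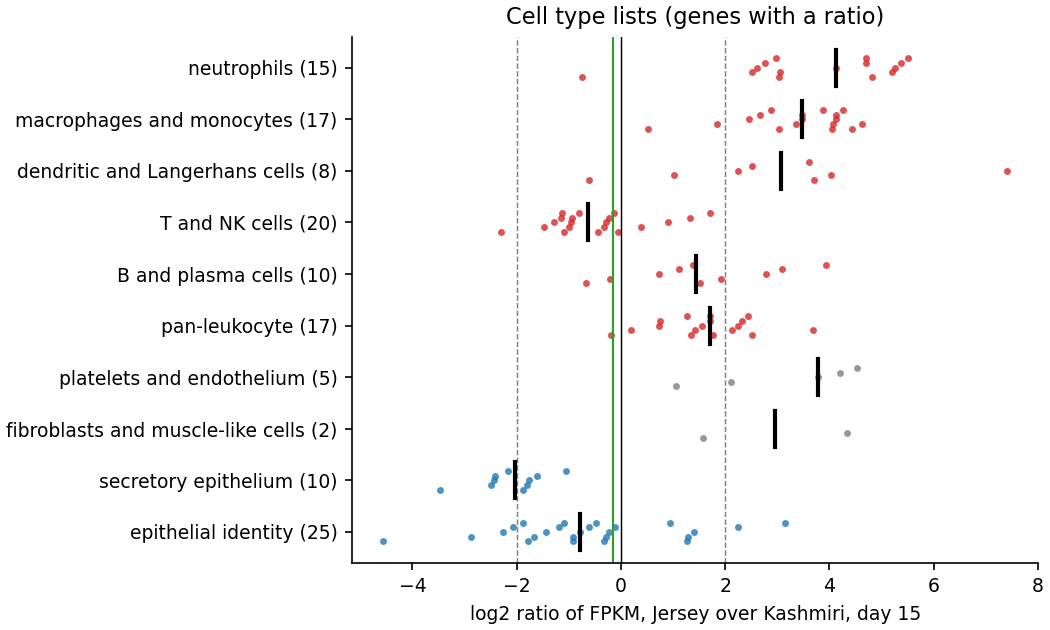
Log2 ratio of FPKM, Jersey over Kashmiri at D15, for the members of 10 cell type lists (numbers with a ratio in brackets); points are genes, black bars list medians, dashed lines 4-fold in either direction and the green line the median of all genes. White cell lists (red) lie to the right except T and NK cells, and epithelial lists (blue) lie to the left, with 6 of the 25 identity genes above 0.

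Genes of the secretory epithelium were lower in Jersey without exception among those with a ratio. All 10, out of 14 found, were at least 2-fold lower and 5 at least 4-fold lower, with a median log2 ratio of -2.02. ELF5, the transcription factor of alveolar secretory cells, was at 1799 FPKM in Kashmiri and 338 in Jersey. The folate receptor FOLR1, which shared its entry, had the lowest ratio (543 and 48.8), and the milk peroxidase LPO was at 249.8 and 44.2. PIGR, which carries immunoglobulin A into milk, was at 242 and 71.4. PLIN2, the coat protein of fat droplets that macrophages also make, differed least, at 1359.8 and 659. CSN3, the gene of kappa-casein that stabilises casein micelles, was at 8174 and 1817, but it was listed at 0 in Kashmiri at D90 and D250 and in Jersey at D250, as the other caseins were at D15, so its D15 values may also be incomplete estimates.

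Genes that mark epithelium in general were less uniform. Of 25 with a ratio, 10 were at least 2-fold lower in Jersey and 5 at least 2-fold higher, and the median log2 ratio was -0.78. The luminal keratins KRT19 and KRT7 both had a log2 ratio of -0.92, with KRT7 at 381 FPKM in Kashmiri and 202 in Jersey. CDH1, the adhesion protein of epithelial sheets, was at 12.4 and 9.84, and KRT15 at 58.8 and 54.1. Lowest were SPDEF at 34.5 and 1.47, the claudin CLDN8 at 30.4 and 4.17, and the splicing regulator ESRP1 at 7.31 and 1.73. Among those higher in Jersey were KRT17 (2.46 and 21.7), CLDN4 (41.3 and 109.6), KRT5 (2.74 and 6.67) and the entry that joins KRT8 with KRT4 (55.5 and 135). KRT5 and KRT17 are keratins of basal cells and of stressed or stratified epithelium, but KRT14, the partner of KRT5, and TP63, the basal transcription factor, were under 1 FPKM in both breeds. These 4 entries had log2 ratios below 0 on both other days, from -2.11 (KRT8) to -0.86 (KRT17) at D90 and from -3.07 (KRT17) to -0.74 (KRT5) at D250.

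Milk fat genes were lower in Jersey in the pathway of new fatty acids and their esterification. FASN, the fatty acid synthase, was at 829 FPKM in Kashmiri and 188 in Jersey, ACACA, which commits acetate to fatty acids, at 128 and 29.3, and ACSS2, which activates acetate, at 382 and 113. FABP3, the fatty acid binding protein of the lactating gland, was at 10560.5 and 2454, LPL, which frees fatty acids from blood lipoproteins, at 289.7 and 42.2, and the acyltransferase GPAM at 86.7 and 13.8. LPIN1 was lowest, at 51.9 and 3.03. Of 34 milk fat genes with a ratio, 19 were at least 2-fold lower and 5 at least 2-fold higher (median -1.24). The higher ones were LPIN2, the entry of DGAT2 with UVRAG (17.8 and 108), FADS3, FABP4 (17.6 and 216) and the nuclear receptor PPARG (0.258 and 5.25). FABP4 and PPARG are genes of adipocytes that macrophages also express. The fatty acid transporter SLC27A6 was among the lower members (49.1 and 5.298). The lipogenic regulators INSIG1 and SREBF1 had log2 ratios of -1.76 and -1.40.

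Fat globule and sterol genes followed. Milk fat leaves the cell wrapped in membrane, for which XDH and the butyrophilin complex are needed, and XDH was at 1953 FPKM in Kashmiri and 562 in Jersey. The globule protein MFGE8 was at 1024 and 279.7, the mucin MUC1 at 137 and 44.99, and the transporter ABCG2, which passes vitamins and drugs into milk, at 153 and 25.4. Of 10 with a ratio, 8 were at least 2-fold lower and none higher (median -1.84). Of 21 cholesterol genes, 11 were at least 2-fold lower and 0 higher, with a median of -1.10. HSD17B7, the lowest, was at 46.8 and 9.21. LBR, a nuclear envelope protein with sterol reductase activity, was the 1 gene above 0, at 6.802 and 12.6.

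Genes of lactose and of mineral transport were split. UGP2, which makes the UDP-glucose for lactose, was at 190.2 FPKM in Kashmiri and 56.1 in Jersey, and B4GALT1, the catalytic chain of lactose synthase, at 112 and 37.6. The glucose transporter SLC2A1 was at 36.03 and 40.98, and hexokinase HK2, which white cells use too, at 4.19 and 23.6. The list's median (-0.21 over 13 genes) lay near that of all genes and turned positive with rescaling to equal sums. Among mineral genes, the salivary and milk carbonic anhydrase CA6 was at 14.05 and 0.558, SLC34A2 at 71.9 and 3.39, the vesicle zinc transporter SLC30A2 at 57.4 and 9.97, and the Golgi calcium pump ATP2C2 at 147 and 37.3. PTHLH, a hormone of bone calcium release during lactation, was at 54.5 and 15.4. The plasma membrane pump ATP2B1 went the other way (2.62 and 10.9), and over 22 genes 9 were at least 2-fold lower and 1 higher (median -0.66).

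Amino acid transporters differed by transporter. SLC7A5, the essential amino acid exchanger, was at 92.9 FPKM in Kashmiri and 31.6 in Jersey, and SLC38A3 at 14.4 and 3.99. SLC7A7, which macrophages use, was at 3.29 and 48.6, SLC6A6, the taurine carrier, at 1.65 and 13.4, and the glutamine carrier SLC1A5 at 90.4 and 149.5. Of 17, 4 were at least 2-fold higher and 4 at least 2-fold lower, so that the median was near 0 and took its sign from the scaling. Junction genes were lower: of 20, 12 were at least 2-fold lower and 2 higher (median -1.34), with the scaffold TJP3 at 47.2 and 14.04 FPKM, the desmosome protein DSP at 12.1 and 2.24, and OCLN at 3.84 and 1.12.

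Hormone receptors of lactation were lower in Jersey at low levels. PRLR, the prolactin receptor, was at 2.64 FPKM in Kashmiri and 0.523 in Jersey, GHR, the growth hormone receptor, at 2.36 and 0.154, and INSR at 4.81 and 1.69. STAT5A, the factor that prolactin activates, was at 106 and 56.7, its target CISH at 41.98 and 26.1, and SOCS2 at 4.64 and 1.84. SOCS3, a feedback inhibitor of inflammatory cytokines, was higher in Jersey at 12.2 and 126. Of 19, 5 were at least 2-fold lower and 2 at least 2-fold higher (median -0.68). Of 20 nuclear receptors, 8 were at least 2-fold lower and 6 higher (median -0.85). The retinoic acid receptor RARB was at 15.5 and 1.75 and the thyroid hormone receptor THRB at 14.3 and 4.12, whereas RARA was at 12.7 and 46.3 and the oxysterol receptor NR1H3, a macrophage lipid sensor, at 6.78 and 32.9.

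Cytosolic ribosomal protein genes were lower in Jersey with little spread. Of 41 with a ratio, 40 were lower, 28 at least 2-fold, and 1, the ribosomal protein paralogue RPL7L1, was above 0 (0.10), with a median of -1.08. RPLP1, a stalk protein of the large subunit, was at 21400.1 FPKM in Kashmiri and 9184 in Jersey, and RPS3A at 6406 and 2483. RPS16 had the lowest ratio, at 4.97 and 0.689. Genes of this family have many pseudogene copies, among which reads can be divided, and 6 of the 47 names, RPL7 and RPL23 among them, were under 1 FPKM in both breeds. The list made up 24.5% of the summed FPKM in Kashmiri and 15.2% in Jersey. These sums hold CSN1S1, CSN2, LALBA and PAEP at 0, so both shares may be too high. Translation factors followed at smaller size: EEF1B2, a nucleotide exchange subunit of elongation, was at 1013 and 327, EEF2 at 1366 and 595, and PABPC1 at 624 and 212, and the median of 28 was -0.53. TPT1 was at 49.4 and 0.394, and EEF1A2, the muscle and nerve form of the elongation factor, at 0.0432 and 1.62.

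Genes of the proteasome, the nuclear respiratory chain, mitochondrial ribosomes and heat shock were within 2-fold at D15 with few exceptions. None of the 34 proteasome genes was 2-fold apart, from PSMC3 (-0.61) to PSMA3 (0.90), and 1 of 55 nuclear genes of the respiratory chain was, ATP5G2 (-1.11). Of 66 mitochondrial ribosomal protein genes, 1 was at least 2-fold lower, MRPL49 (-1.05). The medians were 0.03 for the proteasome, -0.23 for the respiratory chain and -0.26 for mitochondrial ribosomes, all of them small enough to change sign with a scaling. Of 14 heat shock genes, BAG3 (1.18) and HSPB1 (1.04) were 2-fold higher and none 2-fold lower, with HSPA8 at 511 FPKM in Kashmiri and 534 in Jersey and a median of 0.02 whose sign also turned with the upper quartile. The endoplasmic reticulum list (24 genes, median 0.42) was less uniform. DDIT3, a transcription factor of stress, was at 26.9 and 117, and the protein disulfide isomerase gene PDIA6 at 94.1 and 227. CREB3L1, which drives secretory capacity, was at 95.2 and 16.8. Also at least 2-fold higher were CRELD2 (1.47), HYOU1 (1.13), HSP90B1 (1.02) and EDEM1 (1.01), and SEC61B (-1.01) was at least 2-fold lower. The 4 entries of mitochondrially encoded genes had log2 ratios from 0.15 to 1.53.

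**Figure D3:**
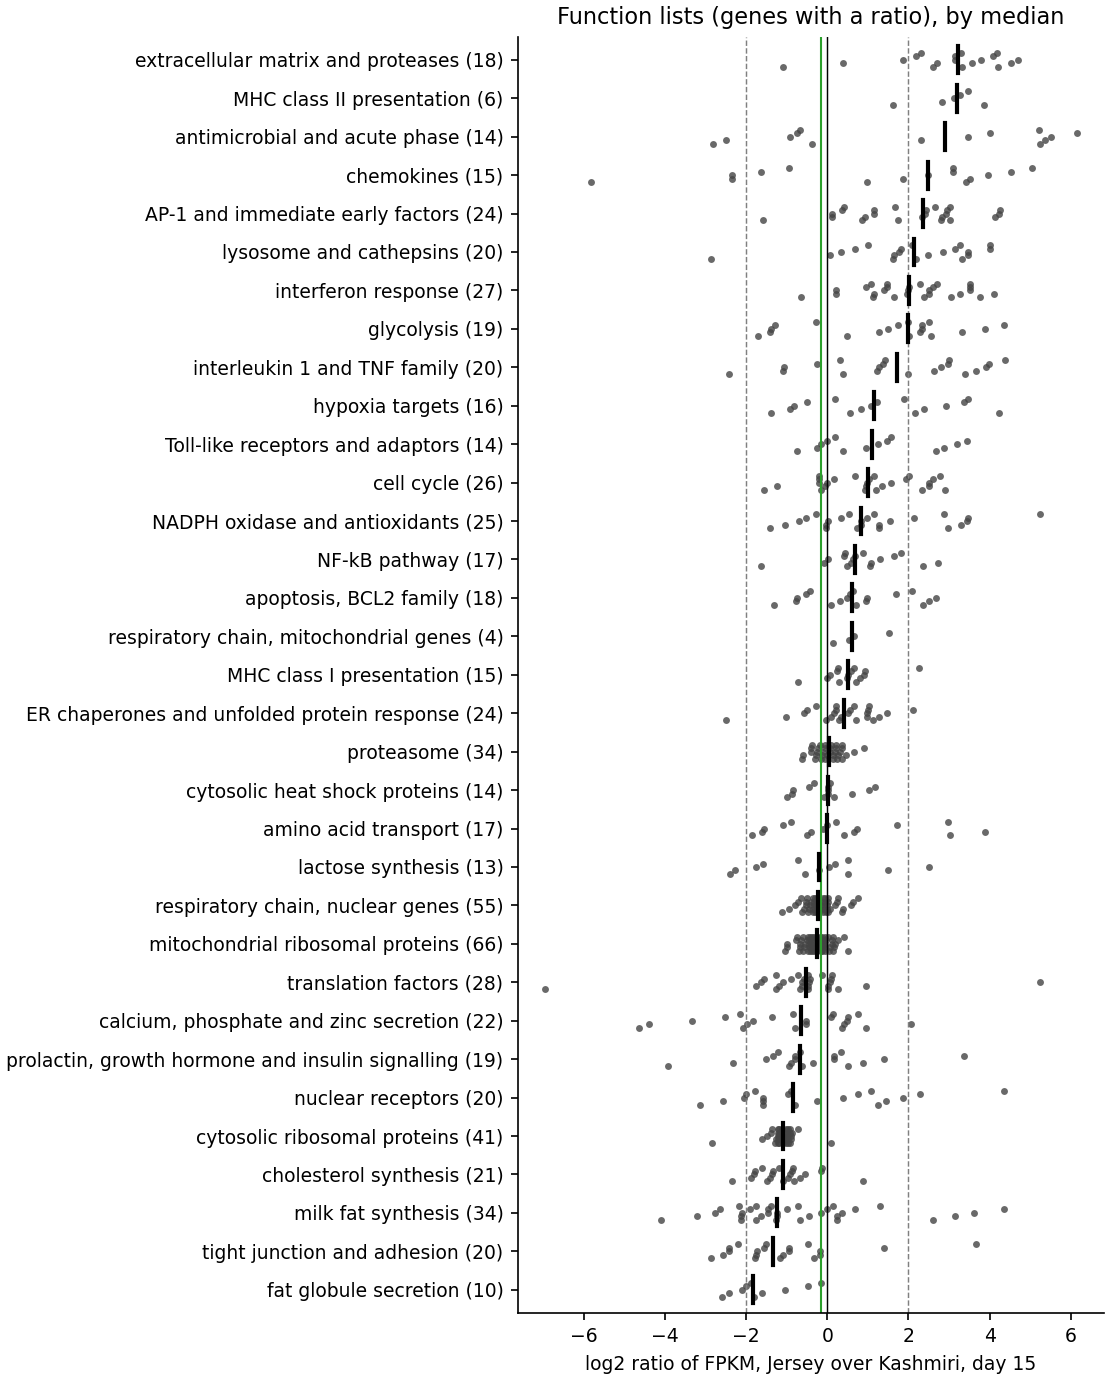
Log2 ratio of FPKM, Jersey over Kashmiri at D15, for the members of 33 function lists ordered by median (numbers with a ratio in brackets); points are genes, black bars medians, dashed lines 4-fold and the green line the median of all genes. Matrix, antigen presentation and antimicrobial lists stand at the top, fat globule, junction and milk fat lists at the bottom, and the proteasome, respiratory chain and mitochondrial ribosome lists are narrow and centred near 0.

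Innate sensing genes were higher in Jersey mainly among receptors. TLR2, a receptor for bacterial lipoproteins, was at 6.87 FPKM in Kashmiri and 63.5 in Jersey, TLR4, the receptor for lipopolysaccharide, at 5.47 and 40.1, and the adaptor MYD88 at 43.8 and 122. The lipopolysaccharide co-factor LY96 was at 18.5 and 21.2, and the kinases IRAK1 and IRAK4 had log2 ratios of -0.15 and -0.75. Of 14 in that list, 7 were at least 2-fold higher and 0 lower (median 1.09). In the NF-kB list (17 genes, median 0.67), the transcription factor subunit RELA was at 55.03 and 55.6, and the inhibitor NFKBIA, which NF-kB itself induces, at 55.96 and 371. TNFAIP3, another inhibitor that NF-kB induces, was lower in Jersey at D15, at 76.1 and 24.4, and its log2 ratio was 1.53 at D90 and 3.41 at D250. The list's median was 2.26 at D90 and 3.41 at D250.

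Cytokine genes were led by the interleukin 1 system. IL1B was at 16.2 FPKM in Kashmiri and 243 in Jersey, and the receptor antagonist IL1RN at 44.6 and 702. IL1RN was listed at 0 in Jersey at D90 and D250, so its D15 values may also be incomplete estimates. OSM, a cytokine of neutrophils and macrophages, was at 7.68 and 97.8. TNF was at 3.74 and 4.67, and IL6 was under 1 FPKM in both breeds. IL33, an alarm cytokine of epithelium, was lower in Jersey (1.59 and 0.296), and so was the receptor IL1R1 (16.01 and 7.56), whose log2 ratio was 2.37 at D90. Of 20, 14 were at least 2-fold higher and 3 lower (median 1.71). Chemokines were split: CCL14 was at 103 and 2382, CCL2, which draws monocytes, at 7.85 and 122, and CXCL16, a scavenger receptor ligand of macrophages, at 17.4 and 148. CXCL12, a stromal and epithelial chemokine, was at 48.7 and 0.859 with the lowest ratio (-5.83), CCL28, the mucosal chemokine that mammary epithelium makes to attract plasma cells, at 53.6 and 10.5, and CCL4, a chemokine of activated lymphocytes and macrophages, at 269.7 and 86.2. Of 15, 9 were at least 2-fold higher and 4 lower (median 2.48).

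Antimicrobial genes were split too. NOS2, the inducible nitric oxide synthase, was at 0.483 FPKM in Kashmiri and 34.5 in Jersey, the beta-defensin DEFB7 at 0.576 and 21.4, PTX3, a soluble pattern receptor, at 1.65 and 26.5, and LYZ at 11.4 and 56.6. LPO and the entry holding RNASE4 (840.4 and 119.8) were lower in Jersey, and complement C3 differed little (111 and 85.9). Of 14, 8 were at least 4-fold higher and 2 at least 4-fold lower. The median of 2.89 rests on this division, for over the members with at least 1 FPKM in both breeds it was -0.37. Subunits of the phagocyte NADPH oxidase were higher in Jersey by more than the GTPase RAC2 (71.7 and 119): NCF1 was at 7.82 and 296, CYBB at 1.71 and 19.03, CYBA at 82.1 and 607, and NCF4 at 15.2 and 44.3. The haem-degrading enzyme HMOX1, strongly expressed in macrophages, was at 15.1 and 149, whereas catalase (CAT) was at 24.6 and 24.2 and the glutathione synthetase GSS lower at 162 and 60.97.

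Interferon response genes were higher in Jersey at D15 in most members. Of 27 with a ratio, 23 were at least 2-fold higher, 14 of them at least 4-fold, and 0 at least 2-fold lower (median 2.01). ISG15, a ubiquitin-like protein that interferon induces, was at 545 FPKM in Kashmiri and 4494 in Jersey, MX2, an antiviral GTPase, at 1.67 and 28.8, and IFI6 at 67.3 and 327. RSAD2, an antiviral enzyme, was at 10.2 and 62.4, CMPK2, a nucleotide kinase, at 3.15 and 17.9, and IFI44 at 3.21 and 12.7. At D250 the log2 ratios of IFI6, RSAD2, CMPK2 and IFI44 were -0.13, -0.63, -1.15 and -0.19, whereas that of ISG15 was 2.28. OASL was the member below 0, at 9.27 and 5.94. MHC class I genes differed less: B2M was at 3089.8 and 3716 and the peptide transporter TAP1 at 89.6 and 134, with 1 of 15 at least 2-fold apart, the immunoglobulin receptor FCGRT (66.6 and 317).

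Glycolytic genes were higher in Jersey in most enzymes of the main pathway. LDHA, which turns pyruvate to lactate, was at 24.2 FPKM in Kashmiri and 242 in Jersey, PKM at 101 and 590.4, ALDOA at 444 and 1786, and the lactate exporter SLC16A3 at 5.29 and 108. HK3, the hexokinase of myeloid cells, was at 8.21 and 121. ALDOC (289 and 119), PFKM, PFKFB4 and the importer SLC16A1 (31.2 and 11.99) were lower. Of 19, 13 were at least 2-fold higher and 4 lower (median 1.99). Among hypoxia targets (16 genes, median 1.15), ADM was at 1.18 and 12.3 and VEGFA at 9.98 and 37.2, but the carbonic anhydrase CA9 was at 6.92 and 2.63.

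Immediate early and matrix genes were higher in Jersey. FOS was at 35.8 FPKM in Kashmiri and 291 in Jersey, JUNB at 49.9 and 387, the phosphatase DUSP1 at 25.97 and 213, and IER3 at 14.8 and 284. Such genes are induced within minutes by many stimuli. NR4A2, an orphan nuclear receptor of the same class, was lower (12.5 and 4.19), and of 24, 17 were at least 2-fold higher (median 2.37). In the matrix and protease list (18 genes, median 3.23), MMP19 was at 10.2 and 236, the membrane protease MMP14 at 3.62 and 67.1, the urokinase receptor PLAUR at 79.1 and 699, and the inhibitor TIMP2 at 42.9 and 427. TIMP3 was lower, at 25.6 and 12.1, and no collagen of the list reached 1 FPKM. The log2 ratio of MMP19 was 1.39 at D90 and 0.14 at D250, after 4.54 at D15. In the apoptosis list (18 genes, median 0.60), the death receptor FAS was at 4.24 and 26.97 and BAX at 23.4 and 99.4, while BCL2 was at 10.1 and 6.94.

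Genes of mitosis were at low levels in both breeds, and several entered through their Jersey value alone. Of the genes that reached 1 FPKM in each breed, AURKB, a kinase of chromosome separation, was at 1.27 FPKM in Kashmiri and 6.36 in Jersey, and CCNB2, a mitotic cyclin, at 4.5999 and 10.6. Under 1 FPKM in Kashmiri, BIRC5 was at 0.711 FPKM in Kashmiri and 5.35 in Jersey, CDC20, which starts chromosome separation, at 0.863 and 5.28, CCNB1 at 0.386 and 2.67, and MKI67, the gene of the proliferation antigen Ki-67, at 0.796 and 2.38. Not all mitotic genes were higher in Jersey, for BUB1B was at 2.68 and 0.905 and CDK1 at 3.52 and 3.07. Genes of DNA replication were divided. MCM5 was at 17.2 and 15.01, MCM7 at 33.9 and 33.8 and PCNA at 17.2 and 16.7, differing little. Others were higher in Jersey: MCM2 was at 4.48 and 11.4, MCM3 at 6.36 and 12.01 and RRM2 at 1.01 and 5.75. CCND3, the cyclin D of lymphocytes, was lower, at 128 and 54.4. Of 26, 13 were at least 2-fold higher and 2 lower (median 1.00), and the median was 0.69 over members that reached 1 FPKM in each breed and -0.007 at 10 FPKM in either.

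Entries of small RNA genes included the widest ratio of all. The libraries were made from polyadenylated RNA and such entries are short, so their FPKM do not measure mature small RNAs. SNORD50 was at 7047 FPKM in Kashmiri and 1.19 in Jersey (log2 ratio -12.53), Metazoa_SRP at 200.4 and 2.13, and snoU13 at 4.94 and 0.06796. Opposite to these, bta-mir-223, the gene of a microRNA of neutrophils and macrophages, was at 0.315 and 96.6, and bta-mir-29c at 0.0137 and 2.39. Of 98 small RNA entries with a ratio, 10 were at least 4-fold higher in Jersey and 26 at least 4-fold lower. Over all genes with a ratio, the shares were 10.1% and 4.96%. Among the 20 microRNA genes, 8 were at least 4-fold higher and 2 at least 4-fold lower. Those with the highest ratios, bta-mir-223, bta-mir-29c, bta-mir-582, bta-mir-210 and bta-mir-101-1, were under 1 FPKM in Kashmiri. They entered through their Jersey value alone, so the count of higher ones is not read as a result about microRNAs.

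Some genes were listed at 0 in 1 breed and at 100 FPKM or more in the other. APOE, the lipid carrier of macrophages and other cells, was listed at 0 in Jersey and at 463 FPKM in Kashmiri at D15, but at 4414 in Jersey at D90 and 639.9 at D250. SNORD33 (598), SNORD96 (1237) and the unnamed gene ENSBTAG00000043683 (140.4) were also listed at 0 in Jersey. Listed at 0 in Kashmiri were SCARNA18 (109 in Jersey) and the unnamed genes ENSBTAG00000043545 (504), ENSBTAG00000047913 (858), ENSBTAG00000005005 (4619) and ENSBTAG00000047329 (11402). No fold is given for them, because a 0 in such values can be a failed estimate.

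**Figure D4:**
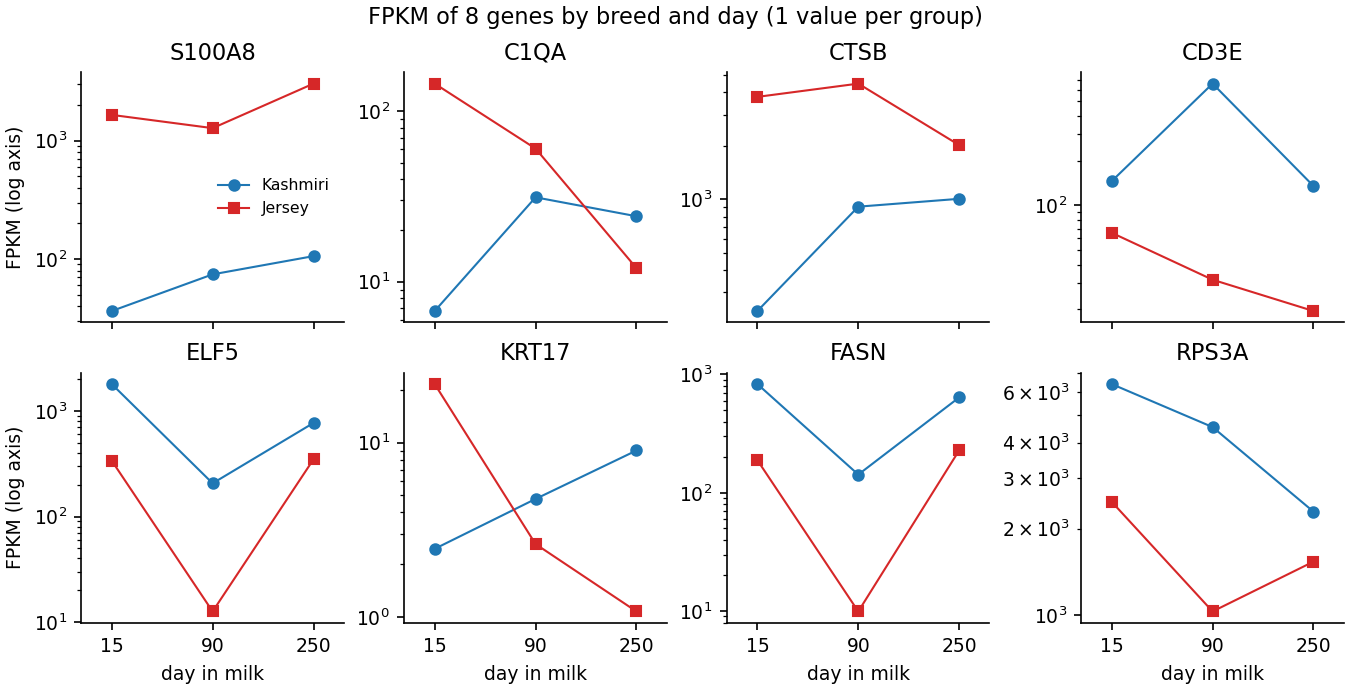
FPKM (vertical, log axis, own range in each panel) of 8 genes at D15, D90 and D250 (horizontal) in Kashmiri (blue circles) and Jersey (red squares), 1 value per group. S100A8 and CTSB are higher in Jersey at each day, C1QA and the entry of KRT17 change order between days, and CD3E, ELF5, FASN and RPS3A are lower in Jersey at each day, with the narrowest gap for CD3E at D15.

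The genes at least 4-fold apart were then divided by the cell type lists and by the other days. Of the 1132 higher in Jersey, 44 stood in a white cell list, 2 in an epithelial list and 5 in another cell list. Of the 554 lower in Jersey, 9 stood in an epithelial list, 1 in a white cell list and none in another list. Most genes were in no list, and 639 of the higher and 207 of the lower ones had the same direction by at least 2-fold at both D90 and D250. No ratio could be taken at 1 or both of those days for 94 of the higher genes outside the lists (8.304%) and 234 of the lower ones (42.2%), which could not be compared across days. Over all genes, 20.1% were at least 2-fold higher in Jersey at D90 and 25.5% at D250, and 21% and 19.5% were at least 2-fold lower. Of those 639 genes, counting symbols that reached 1 FPKM in each breed, the highest D15 ratios after NCF1, ACOD1 and TG belonged to NFE2 (5.92 and 153 FPKM), UPP1 (5.71 and 143) and RETN (3.24 and 81.2). NFE2 and RETN are known from myeloid cells although no list held them, so absence from a list does not mark a gene as independent of cell mixture. Among the 207, the lowest after SLC34A2, IL12RB2, CRTAM, SPRY2 and CD7 were CRYM (13.7 and 1.41), RHPN2 (27.998 and 2.95) and SELENBP1 (233 and 24.97).

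**Figure D5:**
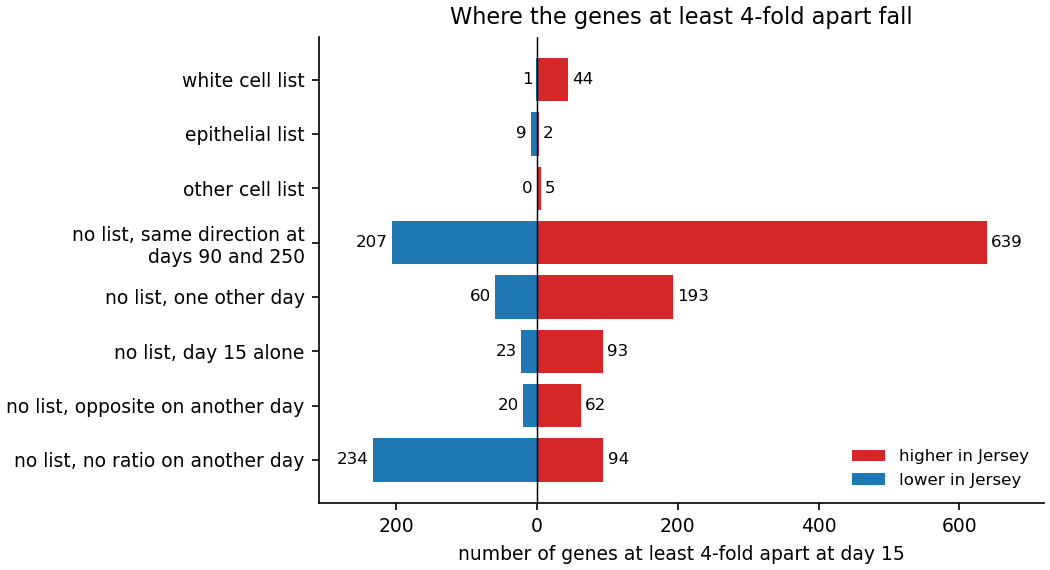
Number of genes at least 4-fold apart at D15 (horizontal), higher in Jersey to the right and lower to the left, by class (vertical): in a cell type list, or in none and grouped by their ratio at D90 and D250. The largest class of the higher genes is that of 639 with the same direction at both other days, against 207 of the lower genes, whose largest class is that of 234 with no ratio on another day.

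Among genes in no cell type list, a smaller set was far apart at D15 and within 2-fold at both other days, 93 higher in Jersey and 23 lower. In 85 of the 93, the Kashmiri D15 value was the lowest of the 6 groups, and in 67 the Jersey D15 value was the highest. LGALS1, the gene of galectin-1, was at 107 FPKM in Kashmiri and 1488 in Jersey at D15, then at 759 and 1258 at D90. CKB, the brain-type creatine kinase, was at 31.7 and 476 at D15, and RAB7B, a small GTPase of late endosomes in myeloid cells, at 5.14 and 62.3. PPARG showed the pattern plainly: Kashmiri values were 0.258, 6.02 and 8.81 FPKM at D15, D90 and D250, and Jersey values 5.25, 10.6 and 6.34. The other highest were SLC37A2, a sugar-phosphate carrier of macrophages (2.19 and 40.5), HCRTR1 (1.25 and 16.2), VWA5A (0.1202 and 2.05), TREML1 (0.428 and 9.79), CPM, a carboxypeptidase of macrophages (0.138 and 3.22), and PCP4L1 (0.0515 and 1.29). With 8 of these 10 genes in Kashmiri under 6 FPKM, most of the ratios rest on a low denominator.

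In the 23 lower genes, the Kashmiri D15 value was the highest of the 6 groups in 20 and the Jersey D15 value the lowest in 8. The choice of genes by their D15 ratio bears on these ranks, for the higher genes too. FKBP15, a gene of endosome traffic, was at 919 FPKM in Kashmiri and 151 in Jersey at D15, and at 67.95 and 35.2 at D90. CLEC3B, the gene of tetranectin, was at 79.05 and 14.6, the vesicle adaptor CLINT1 at 66.7 and 14.8, and the nucleoside carrier SLC28A3 at 38.97 and 6.93. HSD17B7 was at 46.8 and 9.21, LYRM2 at 18.6 and 2.43, MCC at 19.4 and 1.66, SETD7 at 13.999 and 2.22, and SPATS2L at 11.99 and 2.7001. RAB3D, a GTPase of secretory granules, had the lowest ratio (-9.09) at 1.91 and 0.0035 FPKM, and was between 1.23 and 3.71 FPKM in both breeds at the other days. A further 62 higher and 20 lower genes were in no list and at least 2-fold the opposite way at D90 or D250. Among the higher ones were the mitotic genes AURKB, CDC20, CCNB1 and BIRC5, and among the lower ones 15 of the 20 were small RNA entries.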

How the data were processed

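Per the labels and the study's methods, RNA of milk cells captured with antibody to keratin 18 was sequenced as stranded, poly-A selected, paired-end libraries. The authors trimmed reads with Trimmomatic, aligned them with Bowtie2 (version 2 in the submitters' processing notes) and TopHat to the bovine build UMD3.1, and used Cufflinks with Cuffdiff for quantification. The deposited values are FPKM, 1 per gene for each of 6 groups of breed and day, so values per cow were not used here. The columns named Local were taken as Kashmiri, which the study calls the local breed.

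Of 61264 entries, 25121 carry a gene name. Where several entries shared a name, only the one highest on average over the 6 groups was kept, and a gene inside a joined name was looked up by its part, so that its value covers the joined genes. Names with at least 1 FPKM in either breed at D15 and no 0 gave a log2 ratio without a pseudocount. Genes were counted at 4-fold (an absolute log2 ratio of 2) and at 2-fold. Genes at least 4-fold apart were divided by the cell type lists, and those in none of them by their ratios at D90 and D250.

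Named genes were the 10 highest and 10 lowest ratios among symbols that reached 1 FPKM in each breed. Others were the extreme and most abundant members and defining markers of each list, and the extreme small RNA entries. The 10 highest and 10 lowest within 2-fold at both other days were named too, taken from genes in no cell type list. So were genes listed at 0 against 100 FPKM or more. Some genes that this rule names are not reported here, though they count in their lists. The members and lists were chosen with earlier results of these data known. No library total was used, so depth gives no interval. Alternatives changed the pseudocount, the minimum, the scaling, the limit and the handling of names. The code was tested on simulated data and ran in Python 3.11.15 with pandas 2.3.3 and numpy 2.4.6, figures being drawn in matplotlib 3.10.9. Coordinates are not given, since no annotation of that build was used here.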

Additional observations from a re-analysis of the deposited data

Results flagged for a closer look

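The lists below had medians of opposite sign at D15 and on another day, each by at least 0.5 on the log2 scale and over at least 5 genes. The difference between days was not tested, because each group has 1 value and the labels do not tie cows across days. Genes of B and plasma cells had a median log2 ratio of Jersey over Kashmiri of 1.45 at D15, -1.54 at D90 and -1.53 at D250. Cell cycle genes had medians of 1.00 at D15, -0.95 at D90 and -1.25 at D250. Nuclear receptors had a median of -0.85 at D15 and 0.83 at D90. The list of prolactin, growth hormone and insulin signalling had a median of -0.68 at D15 and 0.65 at D250.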

How the results depend on the processing

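No paired analysis was possible because the authors' values give 1 number per group, and no replicate was left out for the same reason. The 1686 genes at least 4-fold apart became 960 with a pseudocount of 1 (723 higher in Jersey and 237 lower), 882 with a minimum of 10 FPKM in either breed (641 and 241), 952 with at least 1 FPKM in both (658 and 294) and 4219 at a limit of 2-fold (2134 and 2085). Higher genes outnumbered lower ones in each of these settings. Rescaling to equal sums without the milk protein genes brought the lower genes from 554 to 330. With that scaling, the genes outside the cell type lists that were lower at all days numbered 135, and those lower at D15 and within 2-fold at the other days numbered 6, which became 14 with the upper quartile.

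The neutrophil median of 4.13 was 2.97 with a pseudocount of 1, 3.04 with 0.1 and 3.05 with at least 1 FPKM in both breeds, since several members were low in Kashmiri, and in these 3 settings it was below that of macrophages (3.08, 3.47 and 3.48). The medians of macrophages, T and NK cells, secretory epithelium and ribosomal proteins stayed within 0.58 and kept their sign in every setting tried. Over 43 lists and 8 settings, 312 of 340 medians did so and 16 moved further without turning. The rescalings shift every ratio alike, by 0.41, 0.13 or -0.09. They could turn a sign but could not move a median by more than 0.58, so those medians do not measure stability. With a pseudocount of 1, the median went from 3.07 to 2.35 for dendritic cells, from 1.45 to 0.84 for B and plasma cells, from 3.79 to 1.07 for platelets and endothelium, from 2.96 to 1.96 for fibroblasts and muscle-like cells, from 2.48 to 1.58 for chemokines and from 2.89 to 1.59 for antimicrobial genes. At 10 FPKM in either breed it went from -0.66 to -1.37 for mineral secretion and from 1.71 to 2.89 for the interleukin 1 list, and to 3.701 for dendritic and 4.34 for muscle-like cells. In the list of fibroblasts and muscle-like cells only ACTA2 and TAGLN had a ratio, both under 1 FPKM in Kashmiri. Its 4.34 is the ratio of TAGLN alone. For platelets and endothelium it was 2.85 with a pseudocount of 0.1 and 1.06 where each breed had to reach 1 FPKM. The sign turned for lactose synthesis (0.21), the nuclear respiratory chain (0.19), mitochondrial ribosomal proteins (0.15) and amino acid transport (0.41) with rescaling to equal sums, for heat shock proteins (-0.0751) and the proteasome (-0.0592) with the upper quartile, and for amino acid transport with the median set to 0 (0.13), at 10 FPKM in either breed (0.53) and at 1 FPKM in both (0.21). At 10 FPKM in either breed it also turned for the cell cycle (-0.007) and nuclear receptors (0.57), and at 1 FPKM in both for antimicrobial genes (-0.37). Leaving out members of joined names, an alternative chosen after seeing the data, turned no median and took that of antimicrobial genes to 3.48.

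A single value per group leaves every ratio without an error. Low values are a further limit, since a ratio over a value far under 1 FPKM can rest on few fragments.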

Other observations

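A few named entries stood alone in 1 of the 6 groups of breed and day. Taking entries at 10 FPKM or more and at least 20 times the highest of the other 5 groups, 6 stood alone in Kashmiri at D15 and 1 in Jersey at D15. In Kashmiri they were SNORD50 (7047 FPKM, against 3.29 in the next group), SNORD96 (1237, listed at 0 elsewhere), TMEM232 (1051, against 1.34), SNORD33 (598, listed at 0 elsewhere), SPDEF (34.5, against 1.47) and TSKS (23.2, against 1.06). In Jersey it was SCARNA18 (108.5, listed at 0 elsewhere). SPDEF is an epithelial transcription factor, TSKS a kinase substrate known from testis, and SNORD33, SNORD50 and SNORD96 are small nucleolar RNA genes that lie in introns of host genes. These entries were singled out after their values were seen, and whether a single cow carried any of them cannot be told from 1 value per group.

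The study's qPCR was normalised to GAPDH and UXT. UXT, a widely expressed cofactor, was at 150.1 FPKM in Kashmiri and 83.8 in Jersey at D15, and GAPDH was listed at 0 and 0.00903, so no ratio is given for it. ACTB, which encodes cytoplasmic actin, is abundant in motile white cells and did not serve as a reference there, was at 537 and 1987.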
